A study of Homo sapiens with 12 samples.

Results

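The 2 wild-type JVM3 libraries were set against the 2 wild-type libraries of HG3 and the 2 of MEC1, which makes 6 of the 12 libraries of the series. Members were chosen by the labels alone, the cell line and a U1 status of wild type, and no library or junction column of mutant cells was used. All 3 are human lines that the labels call chronic lymphocytic leukaemia (CLL), a cancer of mature B cells. The series set such cells with and without a g.3A>C mutation of U1, the small nuclear RNA that recognises donor splice sites. The groups used here, JVM3, HG3 and MEC1 of wild-type U1 status, had no other treatment in the labels. Whether the wild-type cells carry an added copy of wild-type U1 is not stated there. The 2 libraries of a line are technical replicates, so a line stands for itself and not for a type of patient. JVM3 is known from its origin as a line made with Epstein-Barr virus from a B cell prolymphocytic leukaemia, a rarer relative of CLL. Virus status was not examined in any of the lines, so the virus is not taken here to set JVM3 apart. Total RNA was sequenced after ribosomal RNA was removed, and the 6 libraries held 29880079 to 35864935 counts assigned to genes.

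Mature B cells carry a B cell receptor, made of an immunoglobulin with CD79A and CD79B, and display peptides on MHC class II molecules to T cells. When activated through CD40, the receptor or microbial sensors, they switch on NF-kB, a family of transcription factors that raises survival genes, chemokines and co-stimulatory molecules. Epstein-Barr virus drives the same NF-kB route through a viral mimic of CD40, and infected B cells grow as lines in culture. Further along, B cells can become plasma cells, which shut down the B cell programme and secrete antibody.

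A gene was called higher in JVM3 when its fitted level was at least 2-fold higher than in HG3 and also than in MEC1, with an adjusted p under 0.05 in edgeR's quasi-likelihood test of JVM3 against the mean of the other lines. Of 19740 genes tested, 2154 were higher in JVM3 (10.9%) and 1385 were lower (7.02%). Of these, 1372 higher and 796 lower genes were protein-coding, out of 13360 protein-coding genes tested. The JVM3 libraries lay above all other libraries for 2151 of the 2154 higher genes and below them for 1302 of the 1385 lower ones. The test adds little beside the fold, since 13853 genes had an adjusted p under 0.05 and the p measures only technical spread. With each line's replicates summed to 1 library, edgeR called 0 genes higher and 0 lower, with 880 at an unadjusted p under 0.05, so no statement here reaches beyond these 3 lines. Of the 2154 higher genes, 968 would not have passed the filter on low counts in the HG3 and MEC1 libraries alone, so they were tested because of JVM3 and had little room not to be called. Among the lower genes, 70 had 3 counts or fewer in HG3 or in MEC1, and no fold is given for those. By the fold rule alone HG3 had 1266 genes above and 1401 below both other lines, MEC1 had 1761 and 2951, and JVM3 had 2154 and 1395. Each list below is given with the share of its tested members called, to be read beside 10.9% higher and 7.02% lower over all genes, and nothing particular to a list was tested. The comparisons of JVM3 with HG3 and with MEC1 share the JVM3 libraries.

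**Figure D1:**
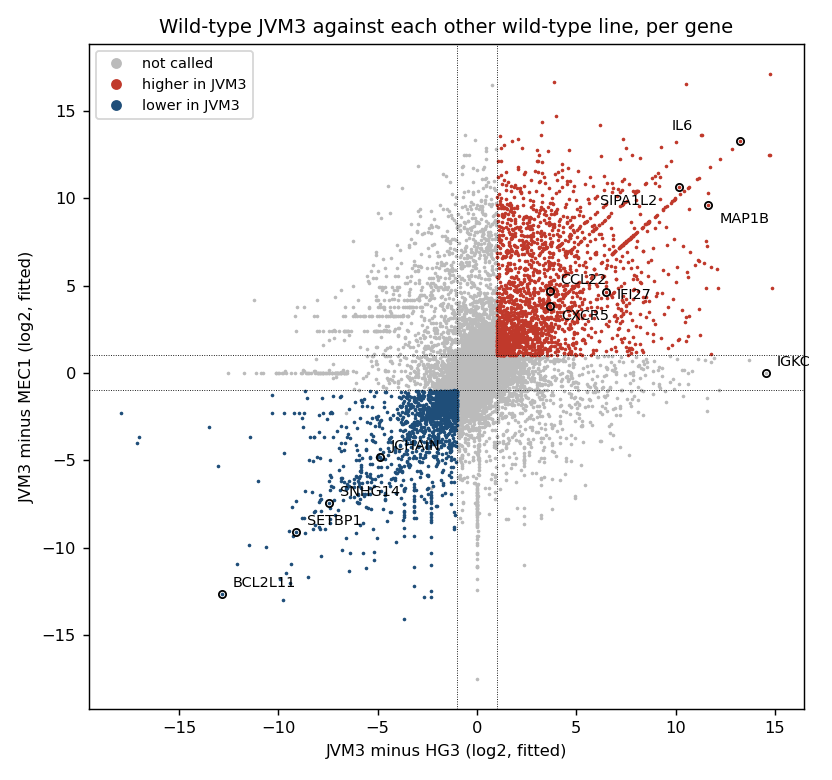
Each point is a gene tested, placed by its fitted log2 difference between JVM3 and HG3 (horizontal) and between JVM3 and MEC1 (vertical), with dotted lines at 1 and -1. The 2154 red genes are higher and the 1385 blue genes lower than in both lines, IL6 and BCL2L11 lie far out in opposite corners, and IGKC differs from 1 of the lines only. Fitted values of genes at 0 counts in a line depend on a prior count and are not bounds.

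The JVM3 libraries looked like B cells by their markers. CPM means counts scaled to a common library size, with TMM factors for single genes and without them for the marker thresholds and sums. All 10 B cell markers listed, MS4A1, CD79A, CD79B and PAX5 among them, reached at least 1 CPM in both JVM3 libraries. Their summed level was lower, however, 3050 to 3150 CPM against 4790 to 5080 in HG3 and 4310 to 4480 in MEC1. In bulk RNA a lower share of expressing cells and less RNA per cell cannot be told apart. Of 9 T cell markers in the table, TRBC2 and CD4 reached 1 CPM and CD3G and TRBC1 were at 0 in both libraries. None of 6 natural killer markers and none of 6 erythroid and platelet markers reached 1 CPM. Among 10 myeloid markers CSF1R, ITGAM and S100A9 did, and their whole list summed to 15.6 to 15.9 CPM, within the range from 2.31 in MEC1 to 17.7 in HG3.

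B cell identity genes were mostly not called. Of 25 tested, 2 were higher (8%, against 10.9% of all genes) and 4 lower (16%, against 7.02%). Their median log2 difference was -0.75 from the mean of the other lines against 0.03 over all genes. It was -0.14 from HG3 and -0.9 from MEC1, so JVM3 lay closer to HG3. MS4A1, the CD20 antigen, stood at 1044 and 1049 CPM in JVM3, 1222 and 1217 in HG3 and 813 and 848 in MEC1, so JVM3 lay between the other lines. PAX5, the factor that holds B cell identity, was at 224 and 215 CPM in JVM3, 208 and 201 in HG3 and 220 and 209 in MEC1, and JVM3 overlapped MEC1. CD79A did likewise, at 164 and 157, 182 and 172, and 158 and 153 CPM. CD79B gave 62.2 and 58.7 CPM, below 86.7 to 93.3 in HG3 and 115 to 119 in MEC1, within 2-fold of both.

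The called identity genes were CXCR5 and CD40 (higher) and CR1, CD180, BTLA and CD72 (lower). CXCR5, the receptor that guides B cells into follicles, stood at 34.8 ± 2.54 CPM in JVM3 (SD, n = 2), 2.71 ± 0.0426 in HG3 and 2.42 ± 0.213 in MEC1. The log2 difference from the mean of the other lines was 3.76 with a technical SE of 0.09 (edgeR adjusted p = 1.89e-39), and no library overlapped. CD40, the receptor for T cell help, was at 322 and 326 CPM against 145 and 144 in HG3 and 68.8 and 72.7 in MEC1. BTLA, an inhibitory receptor, was at 33.3 and 31.4 CPM against 120 and 124 in HG3 and 94.7 and 103 in MEC1. CR1, a complement receptor, was at 1.66 and 1.76 CPM in JVM3, 12 and 12.8 in HG3 and 56.3 and 60.7 in MEC1. CD180, a Toll-like receptor relative, and CD72, a receptor that dampens B cell signalling, were at 1.16 CPM or less in JVM3, and their log2 differences ran from -1.53 to -3.50.

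Light chain use split the lines. IGKC, the kappa constant gene, gave 89.3 and 91.4 CPM in JVM3, 94.3 and 88.8 in MEC1 and 0 in HG3. JVM3 was at least 1988-fold above HG3, and its libraries overlapped those of MEC1. IGLC2, a lambda gene, was at 0.0705 and 0.0596 CPM in JVM3, 2.01 and 0.861 in HG3 and 0 in MEC1. JVM3 and MEC1 therefore held kappa RNA, with 4 and 0 counts of IGLC2. IGLC2 was low in HG3 as well, so total lambda RNA cannot be read from it. IGHM, the heavy chain of IgM, was at 1635 and 1575 CPM, between HG3 (2724 and 2484) and MEC1 (1217 and 1116). Of 11 constant genes tested 0 were higher (against 10.9% of all genes) and 2 were lower (18.2%, against 7.02%). The lower were IGHG2 and IGHE, both under 1 CPM in every library. JVM3 read 0 counts of IGHG2 and 2 of IGHE, and HG3 read 4 and 10. Neither was shown to be lower than HG3 (edgeR adjusted p of 0.0585 and 0.0566 against that line). Constant genes of one class are similar in sequence, so reads may be split among them.

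Of the antigens used to type CLL, 5 of 27 tested were higher (18.5%, against 10.9% of all genes) and 4 lower (14.8%, against 7.02%). CD5, whose presence on B cells marks CLL, stood at 0.423 and 0.506 CPM in JVM3, 42.2 and 41 in HG3 and 0.108 and 0.0947 in MEC1. ROR1, an embryonic receptor regained in CLL, had the same order, at 0.705 and 0.744, 16.7 and 17.2, and 0.325 and 0.189 CPM. JVM3 was thus far below HG3 and above MEC1 for both, at low levels, and neither was called. ZAP70, a T cell kinase whose presence marks aggressive CLL, was at 0 and 0.149 CPM in JVM3 against 26.2 and 25.3 in HG3 and 2.76 and 2.87 in MEC1 (log2 differences of -8.25 and -5.06). FCER2 (CD23) was at 341 and 324 CPM in JVM3, between HG3 (717 and 667) and MEC1 (187 and 183). CD200 was at 101 and 102 CPM, 72.7 and 75.6 in HG3 and 4.58 and 5.3 in MEC1, above both but under 2-fold from HG3. CD38, an activation antigen, gave 22.7 and 23.1, 24 and 27.6, and 9.78 and 10.1 CPM.

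IL2RA (CD25), the high-affinity part of the interleukin 2 receptor, was among the higher antigens, at 74.3 and 73 CPM against 2.43 and 1.79 in HG3 and 0.677 and 0.884 in MEC1. The others were CD86, CD80, IL3RA and LAIR1. CD86 and CD80 are the co-stimulatory ligands that T cells read through CD28. CD86 stood at 618 ± 1.14 CPM in JVM3 (SD, n = 2), 101 ± 0.69 in HG3 and 33.1 ± 0.218 in MEC1, and CD80 at 362 in both libraries of JVM3, against 158 and 161 for HG3 and 39 and 41.1 for MEC1. No library of another line reached those levels. IL3RA gave 17.9 and 16.8 CPM against 4.65 and 4.27 and 3.93 and 4.1. Lower beside ZAP70 were ITGA4, CD6 and CD1C, of which JVM3 read 1 count of CD1C.

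**Figure D2:**
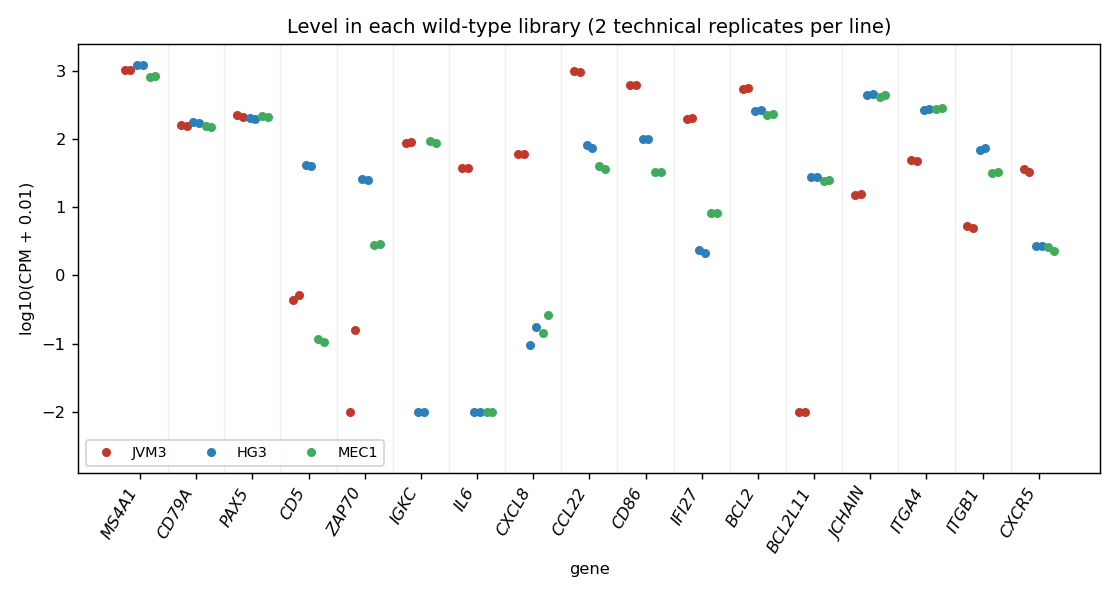
Each point is a wild-type library, with log10(CPM + 0.01) on the vertical axis and 17 genes named in the report on the horizontal axis, so a value of 0 sits at -2. IL6 and CXCL8 stand out high and BCL2L11 low in JVM3, PAX5 and CD79A in JVM3 overlap MEC1, and CD5 is high in HG3 alone.

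Many cytokine and chemokine RNAs were higher in JVM3. Of 33 tested, 20 were higher (60.6%, against 10.9% of all genes) and 0 were lower, and the median log2 difference was 2.02. Of the 20, 7 passed the filter on low counts through JVM3 alone, so the share and the median are descriptions of the list as filtered. IL6, a growth factor of B and plasma cells, stood at 37.7 and 37.3 CPM in JVM3 and had 0 counts in HG3 and MEC1, at least 823-fold and 857-fold higher. IL1A, an alarm cytokine, was at 60.6 and 63.1 CPM against 0.14 and 0.0993 in HG3 and 0.0542 and 0 in MEC1. CXCL8, a chemokine for neutrophils, was at 61.1 and 61.5 CPM, and no other library passed 0.252. IL23A, a subunit of interleukin 23, was at 144 ± 0.201 CPM in JVM3 (SD, n = 2), 0.929 ± 0.325 in HG3 and 1.34 ± 0.473 in MEC1, a log2 difference of 7.01 with a technical SE of 0.24.

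Other higher members covered several kinds of signal. TNF, the inflammatory cytokine, stood at 98.8 and 95.6 CPM against 27 and 25.8 in HG3 and 30.3 and 28.2 in MEC1. IL12B, the subunit that IL23A pairs with, stood at 28.6 and 29.7 CPM against 6.02 and 5.83 in HG3 and 0 and 0.158 in MEC1. IFNG was at 14.2 and 13.7 CPM against 2.24 and 2.95 and 0.217 and 0.252. These 3 were higher in both JVM3 libraries than in every other library. IL13, CSF2, CCL1, IL27, IL1B and CXCL10 were also higher, from levels near 1 CPM or less in at least 1 other line. IL10, which calms immune cells, ran otherwise, with a mean of 0.744 CPM in JVM3, 0 in HG3 and 19.8 in MEC1. Among receptors 7 of 32 were higher (21.9%, against 10.9%) and 2 lower (6.25%, near the 7.02% of all genes). IL6R, through which IL6 signals, stood at 102 and 99.9 CPM against 21.9 and 21.8 in HG3 and 0.596 and 0.694 in MEC1. IL7R, CSF2RB, TNFRSF9, IL10RA, IL15RA and CSF1R were higher too, and TGFBR2 (0 counts in JVM3) and IL9R were lower. CSF1R passed narrowly (log2 difference 1.01 from HG3) and lost its call without JVM3 replicate 1 and without HG3 replicate 2.

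Type I interferon response genes, which are switched on by interferon alpha and beta, were higher in 22 of 40 (55%, against 10.9%) and lower in 0, with a median log2 difference of 1.79. IFI27 stood at 202 and 204 CPM in JVM3, 2.32 and 2.15 in HG3 and 8.31 and 8.14 in MEC1 (log2 difference from the mean 5.56, technical SE 0.03, edgeR adjusted p = 4.13e-56). OASL, a relative of the viral RNA sensors, was at 196 and 198 CPM against 11.5 and 10.7 and 14.4 and 15.6. ISG15, a ubiquitin-like protein, was at 573 and 556 CPM against 75.2 and 72.2 and 144 and 137. JVM3 was the highest line for each, without overlap. IFI6 and IFIT1 had log2 differences of 2.53 to 2.88. MX1 was at 751 and 757 CPM, above 552 and 536 in HG3 and just below 772 and 776 in MEC1. Interferons themselves differed as well, since IFNB1 stood at 4.26 and 4.47 CPM in JVM3 and at 0.126 or less in all other libraries, and IFNA2 at 2.93 and 3.48 CPM against 0.867 or less.

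The sequences upstream of some of these genes show what the list has in common. Interferon-response elements bind the STAT and IRF factors, and their core was searched as GAAA, any 2 bases and GAAA on both strands in the 250 bases before each start, and a gene with several starts counted once. It was found for 22 of the 31 tested list genes that have a promoter in the RefSeq table (71%), against 3.71% of all 27305 genes there. Among higher members 13 of 18 held it, and among the others 9 of 13, so the match goes with the list and did not separate those higher in JVM3. A match is a description of letters and no proof of a site. The stretches that hold it are printed for IFI27, IFI6 and IFIT1, named above, and for the chemokine CXCL10, 5′ to 3′ on the gene's strand, with matches in capitals (GRCh38.p14, RefSeq). They lie at chr14:94110616-94110662 (+), chr1:27672264-27672360 (-), chr10:89392495-89392541 (+) and chr4:76023697-76023730 (-).
IFI27: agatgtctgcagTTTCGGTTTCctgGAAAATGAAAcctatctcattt
IFI6: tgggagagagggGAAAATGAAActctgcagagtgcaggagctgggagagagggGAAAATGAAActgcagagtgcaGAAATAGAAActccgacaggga
IFIT1: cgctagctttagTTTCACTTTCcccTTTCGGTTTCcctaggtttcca
CXCL10: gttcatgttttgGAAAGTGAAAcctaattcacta
All 4 genes were higher in JVM3, and CXCL10 stood at 19.4 and 18 CPM against 0.532 and 0.894 in HG3 and 1.57 and 1.07 in MEC1.

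NF-kB genes were higher in 11 of 29 (37.9%, against 10.9% of all genes) and lower in 0, with a median log2 difference of 1.32. Subunits split by member. NFKB1, which encodes p105 and p50, was at 506 and 501 CPM against 237 and 244 in HG3 and 183 and 193 in MEC1, and NFKB2 and REL were higher too. RELA was at 50.6 and 50.5 CPM against 44.4 and 43.1 and 42.8 and 39.3, above both and well within 2-fold. Inhibitors that NF-kB itself induces were higher, NFKBIA at 946 and 937 CPM against 332 and 327 and 204 and 205, and TNFAIP3, the A20 protein, at 1197 and 1190 against 565 and 559 and 79.7 and 81.6. Within this list the target with the largest difference from both lines was CCL22, a chemokine for regulatory T cells. It stood at 994 ± 27.2 CPM in JVM3 (SD, n = 2), 78.8 ± 5.44 in HG3 and 38.3 ± 2.24 in MEC1 (log2 difference 4.18, technical SE 0.05, edgeR adjusted p = 1.69e-54). LTA, TNFAIP2 and EBI3 followed, and EBI3, an Epstein-Barr virus induced cytokine subunit, stood at 417 and 400 CPM against 146 and 137 and 31.4 and 29.8. TRAF1 was at 1134 and 1106 CPM against 454 and 423 and 161. In all of these MEC1 was lowest except for LTA, where HG3 was.

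A kappaB site, the DNA element that NF-kB binds, was searched as GGGA, any base and TTTCC in the same way and was found for 9 of the 25 listed genes with a promoter (36%), against 0.645% of all genes. Of higher members 6 of 11 held it and of the others 3 of 14, a split of few genes that was not tested. The motif was chosen after values were seen. List genes had 1.64 starts each on average and all genes 1.29, which adds to the chance of a match. Starts were not compared between higher and other members. The stretches of IL6 (chr7:22727115-22727148, +) and NFKBIA (chr14:35404809-35404842, -) are shown as the cytokine and the inhibitor with large differences that hold one. IL6 comes from the cytokine list and is not in the NF-kB list.
IL6: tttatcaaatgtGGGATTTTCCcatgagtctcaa
NFKBIA: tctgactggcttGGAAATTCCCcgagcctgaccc
For CCL22, LTA, TNFAIP2 and EBI3 only the first listed start was looked at, and its window did not hold these letters. The counts above took any start of a gene, so these genes may still be among those counted. Of host genes linked to Epstein-Barr virus in B cells, 6 of 21 were higher (28.6%, against 10.9%) and 0 lower. They were CCL22, CCR7, CCL17, EBI3, TRAF1 and DUSP2, and 3 of these 6 are also in the NF-kB list. Of the 6, 1 passed the filter on low counts through JVM3 alone. SLAMF1, ICAM1 and CD58 of the same list were not called.

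**Figure D3:**
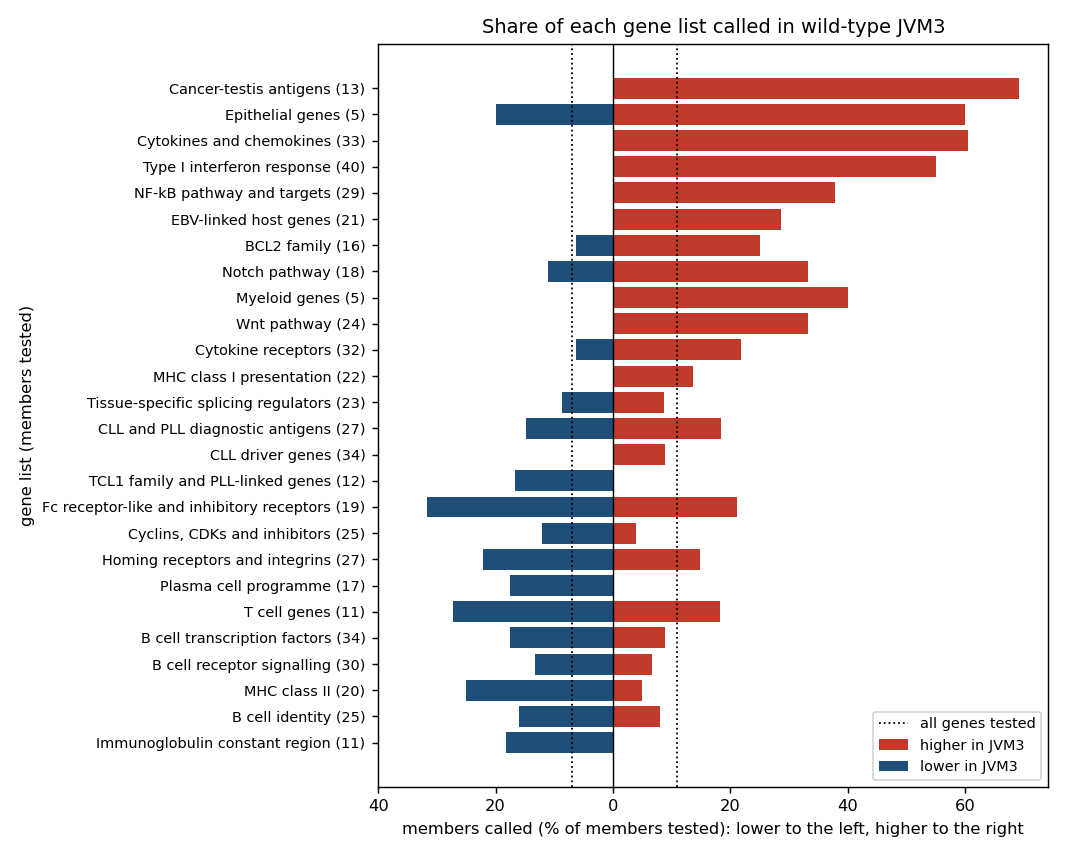
Bars give, for each gene list with at least 5 members tested, the percent of tested members higher in JVM3 (right) or lower (left), with the number tested in brackets, sorted by median log2 difference. Dotted lines mark 10.9% and 7.02% over all genes. Cytokine, interferon and cancer-testis lists reach far past the right line, and MHC class II, inhibitory receptors and T cell genes past the left one.

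The BCL2 family, which sets the threshold for cell death, held the gene with the most negative difference from both lines among those named. BCL2L11 encodes BIM, an activator of apoptosis that B cells use to remove unwanted clones. BCL2L11 had 0 counts in JVM3 and stood at 28 and 27.8 CPM in HG3 and 24.3 and 25 in MEC1, which puts JVM3 at no more than 0.00174 times HG3 and 0.00197 times MEC1. BCL2, the survival protein, was called higher by a small margin, at 547 and 558 CPM against 260 and 270 in HG3 and 226 and 236 in MEC1 (log2 difference 1.16, technical SE 0.02). Its call was lost when the fold of 2 itself was tested. BMF, another pro-death member, was at 127 and 120 CPM against 56.7 and 52.7 and 46.4 and 48.1. Higher too were BCL2L14 and PMAIP1 (NOXA), the latter narrowly, since it lost its call without HG3 replicate 1. The 4 higher of 16 (25%, against 10.9%) held both survival and death genes, and the 1 lower (6.25%) is no more than the share over all genes. MCL1 was at 341 and 345 CPM against 325 and 335 in HG3 and 249 and 263 in MEC1, and BCL2L1 at 186 and 178 against 107 and 99.8 and 20.6 and 18.4.

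Of 27 homing receptors and integrins 4 were higher (14.8%, near the 10.9% of all genes) and 6 lower (22.2%, against 7.02%). CCR7, which leads cells into lymph nodes, was at 1763 and 1732 CPM in JVM3 against 446 and 403 in HG3 and 55.7 and 50.1 in MEC1. CD44, the hyaluronan receptor, was at 1161 and 1159 CPM against 486 and 481 and 61.3 and 60.1. CXCR5, above, and CCR2 were the other higher receptors. Of the 4 higher, 1 passed the filter on low counts through JVM3 alone. The lower side held both chains of integrin VLA-4, which binds VCAM1 and fibronectin. ITGA4 was at 49.1 ± 1.93 CPM (SD, n = 2) against 273 ± 11 in HG3 and 284 ± 8.13 in MEC1 (edgeR adjusted p = 2.56e-44), and ITGB1 was at 5.36 and 4.97 CPM against 68.7 and 73.7 and 32.2 and 32.7. No library overlapped for either chain. CCR10, a receptor of plasma cells bound for mucosa, CXCR3 and CCR6 were lower as well. ITGA6 was called, but JVM3 had 0 and HG3 2 counts, and its call was lost without HG3 replicate 1.

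MHC class II genes were lower in 5 of 20 (25%, against 7.02% of all genes) and higher in 1 (5%, against 10.9%), with a median log2 difference of -0.57. HLA-DQB1 stood at 49.3 and 49.9 CPM in JVM3, 559 and 545 in HG3 and 213 and 209 in MEC1. HLA-DRB5 was at 12.5 and 11.4 CPM against 253 and 244 and 155 and 153, and this gene is present on only some human haplotypes. HLA-DMA and HLA-DMB, whose product loads peptide onto class II molecules, were both lower, HLA-DMB at 9.73 and 10.7 CPM against 51.5 and 51.7 and 47.5 and 53. Their inhibitor HLA-DO split into its chains, HLA-DOA lower (36.7 and 36.8 CPM against 151 and 145 and 99.8 and 98.7) and HLA-DOB higher (52.7 and 54 against 6.6 and 5.83 and 26.4 and 25). HLA-DOB was called only just against MEC1 and lost its call under upper quartile scaling. CIITA, the master regulator, was at 55.2 and 53.2 CPM against 156 and 155 and 92.6 and 91.4, lowest in JVM3 but within 2-fold of MEC1. Class I presentation gave 3 higher of 22 (13.6%, near the 10.9% of all genes) and 0 lower. The 3 were TAP1 and PSMB9, which supply peptides, and TAPBPL. HLA genes vary between people, and reads of alleles unlike the reference may be lost or go to a near copy, so HLA values are uncertain.

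Plasma cell genes were lower in 3 of 17 (17.6%, against 7.02% of all genes) and higher in 0. Their median log2 difference was 0.01 from the mean of the other lines, -0.05 from HG3 and -0.17 from MEC1. JCHAIN, the chain that joins IgM units, was at 15.5 ± 0.125 CPM in JVM3 (SD, n = 2), 457 ± 10.4 in HG3 and 435 ± 19 in MEC1 (log2 difference -4.85, technical SE 0.03). SDC1, the plasma cell antigen CD138, was at 3.84 CPM in both JVM3 libraries against 22.1 and 20.9 and 34 and 33.7. TNFRSF17 (BCMA) was at 10.6 and 11.3 CPM against 97.3 and 99.5 and 29.3 and 28. All 6 plasma cell markers reached 1 CPM in JVM3, and they summed to 397 to 402 CPM against 803 to 825 in HG3 and 1020 to 1050 in MEC1. JCHAIN is among these 6, and its difference from HG3 is at least as large as that of the sums. The regulators IRF4, XBP1 and PRDM1 were not called, with mean levels of 990, 276 and 27.9 CPM in JVM3.

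Of 34 B cell transcription factors 3 were higher (8.82%, under the 10.9% of all genes) and 6 lower (17.6%, against 7.02%). Of the 3 higher, 1 passed the filter on low counts through JVM3 alone. FOXP1 stood at 23.7 and 25 CPM in JVM3 against 0.951 and 1.13 in HG3 and 0.325 and 0.6 in MEC1, with no overlap. KLF4, which slows the cell cycle in B cells, was at 3.21 and 2.62 CPM against 0.0662 or less in every other library. LEF1, a Wnt effector found in CLL, was at 25.4 and 28.9 CPM against 2.91 and 3.94 and 12.5 and 13.1, and lost its call without JVM3 replicate 2. FOXO1, a factor held down by receptor signalling, was lower at 8.07 and 7.56 CPM against 27 and 27.6 and 60.5 and 59.7. IKZF2, KLF2, NFATC1, POU2AF1 and BACH2 were lower as well, and JVM3 read 1 count of BACH2, which was under 1 CPM in all lines. MEC1 read 8 counts of BACH2, and the counting interval of the ratio to MEC1 was 0.00312 to 1.03. JVM3 was thus shown to be lower in BACH2 than HG3 only.

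Most B cell receptor signalling genes were within 2-fold of 1 or both lines. Of 30 tested, 2 were higher (6.67%, against 10.9% of all genes) and 4 lower (13.3%, against 7.02%). LYN, the first kinase of the receptor, was at 417 and 402 CPM against 194 and 192 in HG3 and 154 and 149 in MEC1, and RASGRP1, which turns on RAS, at 209 and 207 against 77.9 and 75.7 and 7.99 and 8.87. FYN, a relative of LYN, was lower at 41.6 ± 1.11 CPM (SD, n = 2) against 210 ± 0.631 and 186 ± 1.2. TEC, DOK3 and PIK3AP1, an adaptor that brings in PI3 kinase, were also lower. Fc receptor-like and inhibitory receptors moved both ways, 4 of 19 higher (21.1%, against 10.9% of all genes) and 6 lower (31.6%, against 7.02%). Of the 4 higher, 1 passed the filter on low counts through JVM3 alone. LILRB4, at 141 and 135 CPM against 14.5 and 13.5 and 7.15 and 7.89, led the higher ones, with VSIR, LAG3 and TIGIT. Lower were FCRL5, at 7.97 and 8.9 CPM against 68.4 and 68.1 and 40.5 and 41.6, and FCRL3, at 0.176 and 0.625 against 10.4 in both HG3 libraries and 11.8 and 13.5. FCRL2, counted among the 6, was at 0 in JVM3, but MEC1 had only 3 counts, so JVM3 was shown to be lower than HG3 only.

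Notch pathway genes were higher in 6 of 18 (33.3%, against 10.9% of all genes) and lower in 2 (11.1%, against 7.02%). The ligand DLL4 stood at 29.6 and 30.1 CPM against 1.32 and 1.46 in HG3 and 0.298 and 0.189 in MEC1, and the ligand JAG1 at 59.7 and 56 against 27.4 and 26.2 and 25.7 and 25.4. The receptor NOTCH2 was at 28.1 and 30 CPM against 7.7 and 7.65 and 6.5 and 5.71, while NOTCH1, the receptor often mutated in CLL, had means of 156, 123 and 59.7 CPM and was not called. Targets disagreed with each other. HES4 was at 9.09 and 8.76 CPM against 0 in HG3 and 0.948 and 0.442 in MEC1, whereas DTX1 was at 2.01 and 2.26 CPM against 17.1 and 16 and 75.2 and 66.4, and HEY2 was lower too. LFNG, which modifies Notch receptors, and MAML2, a co-activator, were higher. In the Wnt pathway 8 of 24 were higher (33.3%, against 10.9%) and 0 lower. WNT5B was at 51.5 and 50.1 CPM against 3.78 and 4.01 and 5.88 and 5.68, and WNT5A, which binds ROR1, at 9.31 and 10.7 against 0.14 and 0.0662 and 1.27 and 1.58. The receptor LRP6, the effectors TCF7 and LEF1, the feedback genes AXIN2 and RNF43 and the receptor ROR2 completed the group.

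Cyclins and their partners gave 1 of 25 higher (4%, under the 10.9% of all genes) and 3 lower (12%, against 7.02%). The higher member passed the filter on low counts through JVM3 alone. CDKN2C, the p18 brake on CDK4 and CDK6, stood at 0.811 and 1.37 CPM in JVM3, 15.4 and 16.1 in HG3 and 48.9 and 45.5 in MEC1. E2F2 and CCNE2 were lower, the latter narrowly and not without HG3 replicate 2, and CDKN2B was higher at 1.41 and 1.01 CPM against 0.347 or less. CCND2 was at 2639 and 2595 CPM, above HG3 (1604 and 1541) and MEC1 (43.7 and 44) but under 2-fold from HG3. CCND1 was at 14.5 and 15.3 CPM, above 3.36 and 3.24 in HG3 and 11.5 and 11 in MEC1. MYC was alike in all libraries, from 223 to 243 CPM. CLL driver genes gave 3 of 34 higher (8.82%, under the 10.9% of all genes) and 0 lower. Among the higher, KLHL6 stood at 233 and 236 against 82.5 and 78.9 and 26.3 and 24.4, and TRIM13 at 31 and 33 against 3.39 and 3.64 and 9.15 and 9.82. ATM was lowest in JVM3, at 186 and 195 CPM against 273 and 293 and 418 and 456, under 2-fold from HG3. Of 12 genes tied to TCL1 or prolymphocytic leukaemia, CDKN2C and JAK1 were lower (16.7%, against 7.02% of all genes) and 0 higher (against 10.9%). TCL1A was at 7.82 and 7.03 CPM in JVM3 and 6.88 and 7.16 in MEC1, and at 0.265 or less in HG3.

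Cancer-testis antigens, genes normally silent outside the germ line, were higher in 9 of 13 tested (69.2%, against 10.9% of all genes) and lower in 0. Their median log2 difference was 7.13, or 5.37 with lines at 0 set to their bound. SSX1 stood at 48.6 and 48.3 CPM in JVM3 against 1 count in HG3 and 0 in MEC1. The ratio to HG3 was 3194 with a counting interval of 573 to 126204, and JVM3 was at least 1108-fold above MEC1. MAGEA1 was at 71 and 70.3 CPM against 1.09 and 0.795 in HG3 and 0 in MEC1, and MAGEB1 at 25.6 and 24.4 against 0.112 or less. MAGEA10, MAGEA4, MAGEC1, MAGEC2, CTAG2 and PAGE5 were also higher. MAGEA3 was not, at 1.27 and 0.893 CPM against 9.01 and 8.21 in HG3. MAGE, SSX and CTAG genes have near-identical copies, and their counts may be split. Of 30 listed, 13 passed the filter on low counts, 5 of them through JVM3 alone, and those had to differ, so the share is no evidence on the list.

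Genes of other lineages moved both ways. The T cell markers summed to 12.7 to 13.1 CPM in JVM3, 0.642 to 0.764 in HG3 and 41.3 to 43.4 in MEC1, and the epithelial markers to 13.4 to 14.3, 4.3 to 5.25 and 15.6 to 16.4. In the T cell list, CD4 stood at 10.3 and 10.5 CPM in JVM3 against 0.308 and 0.331 in HG3 and 0.0271 and 0.0631 in MEC1, and GATA3 at 4.69 and 5.3 CPM against 0.488 or less. LCK, a kinase that some CLL cells share with T cells, was at 1.13 and 1.55 CPM against 76 and 72.7 in HG3 and 38.4 and 41.7 in MEC1, and TBX21 was lower as well. PRF1, a killer cell gene, was at 1.06 and 0.298 CPM, lowest in JVM3. Among epithelial genes KRT5 was at 28.3 and 28.4 CPM against 1.99 and 2.72 and 0.0813 and 0.0316, and KRT8 and KRT18 were higher at under 4 CPM, while EPCAM had 0 counts in JVM3 and 1 in HG3. COL3A1 and COL1A2, collagen genes, were higher at 1.61 CPM or less. The part of stray cells or RNA in these low values was not tested.

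Among all named genes, the largest differences from both lines joined silent and active states. Beside IL6, the genes with 0 counts in both other lines and at least 5 CPM in JVM3 included ZFP57, a guardian of imprinted DNA marks (27.2 and 27.7 CPM), ETV3L (17.7 and 18.3), and NDN, an imprinted growth regulator (13.5 and 12.7). TMEM72 and ZSCAN23 had the same pattern. ZFP57 was at least 604-fold above HG3 and 629-fold above MEC1. ALPL, alkaline phosphatase, stood at 104 and 103 CPM against 0 in HG3 and 1 count in MEC1. Its ratio to MEC1 was 7100 with a counting interval of 1274 to 280469, which shows how little 1 count fixes. SIPA1L2 was at 145 CPM in both JVM3 libraries and MAP1B, a microtubule protein of neurons, at 259 and 252, and each was at 0.442 CPM or less elsewhere (log2 differences of 10.41 and 10.63 from the mean). BMP2, GPAT2, CDC42EP1 and SSX1 were also among the leading 14.

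On the lower side BCL2L11 led. RTL8C was at 0 in JVM3 and at 16 and 16.9 CPM in HG3 and 7.69 and 7.32 in MEC1. SETBP1, a binding partner of SET, stood at 0.0948 ± 0.0344 CPM in JVM3 (SD, n = 2), 55.7 ± 2.08 in HG3 and 54.4 ± 0.887 in MEC1. SCCPDH was at 0.0705 and 0.0596 CPM against 40.7 to 46.9 in the other libraries, and TBXT, the brachyury factor of early mesoderm, at 0.423 and 0.357 CPM against 97.4 and 93.1 in HG3 and 61.1 and 56.8 in MEC1. HG3 and MEC1 overlapped for SCCPDH and lay close together for SETBP1, with JVM3 near 0. ERICH3, SNHG14, CCDC26, TRIQK, DDAH1, SELENOW, ONECUT2, SLC30A4 and ADAMTS12 were the others. SELENOW, a selenoprotein, stood at 0.211 and 0.0893 CPM against 16.8 and 14.9 and 22 and 24.2.

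By chromosome, the genes of chromosome 12 stood out. Over its 1018 tested genes the median log2 difference was 0.51 from HG3 and 0.71 from MEC1, against 0 and 0.03 over all genes. Of them, 63.9% were above both other lines by any amount, against 34.6% of all genes, and 201 were higher (19.7%) and 33 lower (3.24%). TAPBPL, LAG3, OASL, IL23A, CD4, WNT5B, KRT5 and BCL2L14, named above as higher, lie on it, and so does DTX1, named above as lower. CDK4 lies on it too (182 and 183 CPM against 116 and 112 and 170 and 167). DNA copy number was not measured here. Chromosome 21 ran the other way, with medians of -0.35 and -0.40 over 230 genes, 53% of them below both lines against 32.7% of all. Chromosome 3 followed at 0.26 and 0.21. On chromosomes 6, 7, 9 and 13 the medians were 0.33, -0.35, -0.38 and -0.26 from MEC1 and 0.01, -0.01, -0.06 and 0.09 from HG3.

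**Figure D4:**
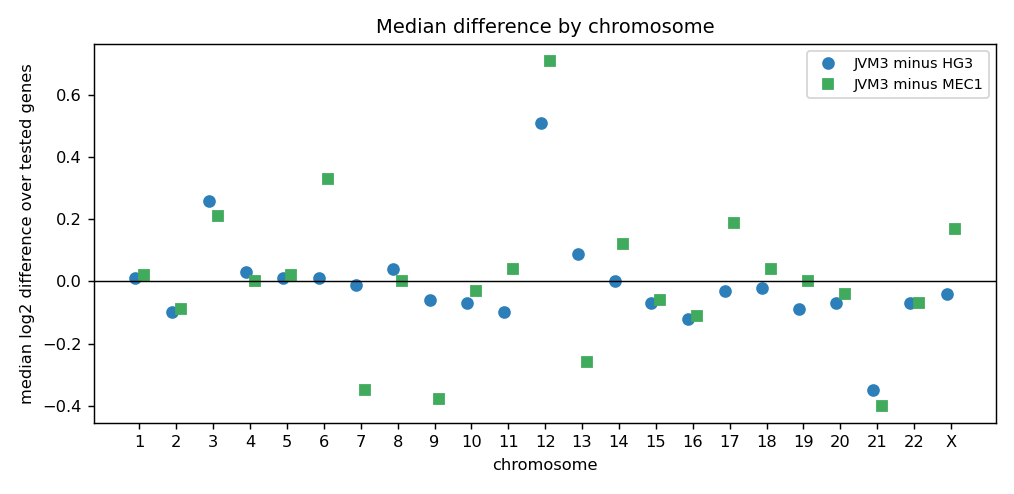
Points give the median log2 difference of JVM3 from HG3 (circles) and from MEC1 (squares) over the tested genes of each chromosome. Chromosome 12 lies at 0.51 and 0.71, chromosome 3 at 0.26 and 0.21, and chromosome 21 at -0.35 and -0.40.

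Called genes also lay side by side. There were 53 runs of at least 4 neighbouring tested genes all higher, holding 248 genes, and 14 runs all lower, holding 76. Neighbours were taken among tested genes only, and 968 of the 2154 higher genes were tested because of JVM3. The number of higher runs is therefore not to be set against the number of lower ones. The longest run, 18 lower genes on chromosome 15, went from SNURF through SNHG14 and the SNORD116 small nucleolar RNAs of the imprinted Prader-Willi region. On chromosome 21, 6 neighbours from SAMSN1 to NRIP1 were lower, and SAMSN1, an adaptor that restrains B cells, stood at 5.43 and 5 CPM against 288 and 305 in HG3 and 238 and 255 in MEC1. FCRL5, FCRL4, FCRL3, FCRL2 and CD1C were called side by side on chromosome 1, but FCRL2 had 3 counts in MEC1, and without it no run of 4 remains. In all, 3 of the 14 lower runs hold a gene with 3 counts or fewer in another line. Runs of higher genes included S100A6, S100A4, S100A2, S100A14 and S100A13 on chromosome 1, KRT7, KRT86, KRT5, KRT8 and KRT18 on chromosome 12, the IL1A, IL1B, IL36G and IL1RN cluster on chromosome 2, SLFN5, SLFN11 and SLFN12 on chromosome 17 and the protocadherins PCDHGB1 to PCDHGA7 on chromosome 5. S100A4, a calcium-binding protein, was at 117 and 127 CPM against 2 counts in HG3 and 1.95 and 1.64 CPM in MEC1. TNFAIP3 and PERP headed a run on chromosome 6, and IFNB1 and IFNA2 lay in runs on chromosome 9. Some of these genes overlap or share exons, so single reads may serve neighbours.

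Splicing was read from the junction table, with 15537369 reads in the JVM3 column, 16659496 in HG3 and 15976355 in MEC1. Each line has 1 column without a replicate number, taken as pooled, and so no replicate check and no test. For each acceptor (the end of an intron) with at least 20 reads in every column, a junction's use was its percent of the reads there. Of 70797 junctions compared at 29191 acceptors, 195 were used at least 20 points more in JVM3 than in both other lines (0.275%) and 178 at least 20 points less (0.251%). By the same rule HG3 had 171 and 150 and MEC1 337 and 314. Of 23 tissue-specific splicing regulators 2 were higher, ESRP1 and KHDRBS3, and 2 lower, KHDRBS2 and RBM20 (8.7% each way, near the shares over all genes). KHDRBS2 had only 3 counts in MEC1, and ESRP1 lost its call without JVM3 replicate 2. Of the 2 higher, 1 passed the filter on low counts through JVM3 alone. The acceptor reads behind a JVM3 call had a median of 53. Of junctions matched to a gene, 22.7% of those used more and 11.9% of those used less were not in GENCODE 29, against 37.4% of all compared.

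ULK3, a kinase of the autophagy family, gave a clean switch. An exon with 2 donors, 6 bases apart, was joined from the upstream donor (chr15:75129776-75130098, hg19, minus strand) in 83 of 83 JVM3 reads, 53 of 117 in HG3 (45.3%, 95% Wilson interval 36.6 to 54.3) and 38 of 78 in MEC1 (48.7%, 37.9 to 59.6). The downstream donor (chr15:75129776-75130092) had 0 of 83 reads in JVM3, which allows up to 3.61%, 64 of 117 in HG3 and 40 of 78 in MEC1. The message across the join follows, with the 6 bases that only the downstream donor keeps in capitals, both from coding exons of GENCODE 29 transcripts.
ULK3 downstream donor: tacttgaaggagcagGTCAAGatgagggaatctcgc
ULK3 upstream donor: tacttgaaggagcagatgagggaatctcgc
JVM3 thus lacked the longer form at this depth, whereas both other lines used both donors. The RNA level of ULK3 was alike, at 34.6 and 31.9 CPM in JVM3, 38.6 and 36.9 in HG3 and 25.4 and 25.7 in MEC1. CBR4, a reductase of mitochondrial fatty acid synthesis, changed its upstream exon. The join from chr4:169923356-169927036 took 72 of 136 JVM3 reads (52.9%, 44.6 to 61.1) against 8 of 198 in HG3 (4%) and 4 of 146 in MEC1 (2.7%). Capitals mark the last 15 bases of the upstream exon, which differ, and small letters the shared exon.
CBR4 used more in JVM3: TGCTGCTCCATAAAAgaagcattgttggct
CBR4 at the other join: CTATTGTTAATGTAGgaagcattgttggct

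The other junctions with the largest differences lay in HLA-DQB1, RGS19, SYNJ2, ADCY3, HVCN1 and SRPK2. SYNJ2, a lipid phosphatase, used a junction not in the annotation for 172 of 253 reads in JVM3 (68%), 5 of 39 in HG3 and 0 of 38 in MEC1, and its RNA was higher too, 114 and 111 CPM against 19.9 and 20.9 and 27.2 and 27.4. ADCY3, an adenylate cyclase, used another such junction for 185 of 219 reads (84.5%) against 0 of 75 and 62 of 202. HVCN1, a proton channel of B cells, did so for 135 of 201 reads (67.2%) against 64 of 714 (9%) and 67 of 388 (17.3%). For these 3 the JVM3 interval did not meet those of the other lines. RGS19 and SRPK2 rest on 20 and 28 JVM3 reads. The junctions of HLA-DQB1 used more and of HLA-B used less span to a neighbouring near-identical gene, so their reads, and the shares of HLA-C at the same acceptor as HLA-B, are uncertain.

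Of 279 genes of the lists with a junction compared 13 had a called one (4.66%), against 196 of all 7698 genes (2.55%). The 13 include HLA-B, HLA-C and HLA-DQB1, whose reads are uncertain as said above, so the shares are not compared further. Those described were picked by their values. CD86 used 1 upstream exon for 1584 of 2137 reads in JVM3 (74.1%, 72.2 to 75.9), 166 of 382 in HG3 (43.5%) and 32 of 106 in MEC1 (30.2%), and another for 22%, 50.3% and 66%. TNFAIP3 used a junction for 470 of 1143 reads (41.1%) against 18.2% and 16.9%. FYN used the join from the more distant of 2 upstream exons for 50 of 67 reads (74.6%) against 31.3% and 25.1%, beside its lower RNA level. PIK3AP1 had 59% against 31.8% and 35.5%, and FCRLA 95.4% against 65.3% and 74.7%. In PTBP2, a neuronal splicing regulator, the join from the nearer donor took 29 of 48 JVM3 reads (60.4%, 46.3 to 73) against 21.4% in HG3 and 4.9% in MEC1. BCL2 had an unannotated junction at 326 of 674 reads (48.4%) against 28.1% and 10.1%. PTPRC (CD45) and CD44, known for variable exons, had 11 and 10 junctions that passed the read minimum and none called. At the PTPRC acceptors with the widest spread, JVM3 lay between the others, with 65.8% of reads joined from the more distant donor against 80.5% in HG3 and 7.6% in MEC1. CD44 differed by at most 11.7 points from HG3 and 9.6 from MEC1.

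**Figure D5:**
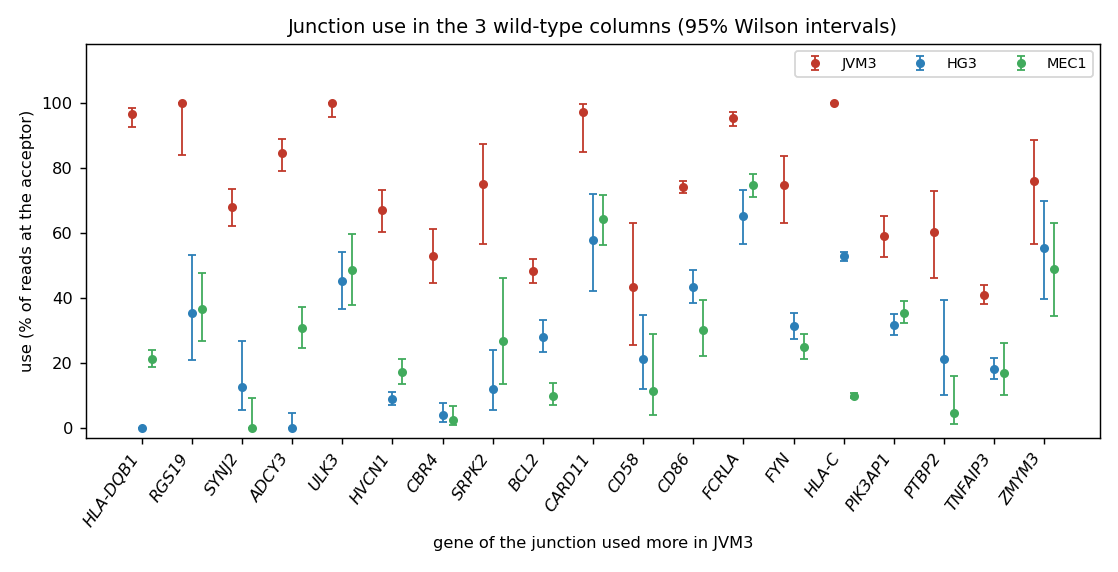
Points give the percent of reads at an acceptor that use the named gene's junction in JVM3, HG3 and MEC1, with 95% Wilson intervals, which cover counting error only. The first 8 genes are those with the largest differences and the others are genes of the lists. ULK3 and RGS19 reach 100% in JVM3, and CD86, FYN and HVCN1 lie well above both other lines.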

How the data were processed

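Groups and technical replicate numbers came from the labels. Total RNA was extracted with Trizol and ribosome-depleted stranded libraries were made, per the labels' protocols. STAR 2.5.4b, HTSeq 0.9.1 and hg19 (GRCh37) are named in the submitters' processing notes. The sources used here do not give the strand setting or the annotation release.

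The deposited gene table holds raw read counts for 57820 genes. Symbols matched 39538 IDs and GENCODE 29 placed 52338 on chromosomes. Entries that name no gene were left out: no feature 17.72% to 23.39%, ambiguous 0.91% to 1.06%, not unique 29.02% to 33.75% of entries. Replicates differed by more than counting noise (chi-square per gene 2.56 to 4.52). The series text calls them technical.

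The 6 wild-type libraries were fitted as 3 groups with edgeR 4.0.16 (quasi-likelihood, robust, TMM, filterByExpr, Benjamini-Hochberg) in R 4.3.3, tested on simulated data. DESeq2 1.42.0 was an alternative. Same-numbered libraries of different lines deviated together (correlations 0.103, 0.145 and 0.192 over 11013 genes). A replicate block gave 2154 genes higher and 1375 lower.

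The SE is technical. A count of 0 was bounded at 3 counts over a line, and ratios carry 95% intervals for counting error only. Named genes were the 14 with the largest difference from both lines in each direction (at least 5 CPM), up to 4 called per list and direction, and 21 always named. Any other was chosen after its values were seen, as were the motifs. Some named genes are not reported here. The members and lists were chosen with earlier results of these data known.

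The deposited junction counts carry hg19 coordinates and no gene names. Clusters were named by exact intron lengths in GENCODE 29 (GRCh38), within 100 kb, for 37065 of 43534 (85.1%). No coordinate was converted.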

Additional observations from a re-analysis of the deposited data

How the results depend on the processing

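The genes higher in JVM3 numbered 2154 and those lower 1385. DESeq2 size factors, upper quartile scaling, the DESeq2 Wald test and the replicate block kept both counts within 1.5 times (2071 to 2177 higher, 1260 to 1460 lower), as did leaving out each library (2247 to 2486 and 1389 to 1462), and no called gene reversed. No filter on low counts gave 3252 higher and 1590 lower of 38061 genes, which tests more low genes. A fold of 4 left 1206 and 598, testing the 2-fold threshold itself 1667 and 732 (without BCL2, TAP1, KLF2, TIGIT, BACH2, CD6, FCRL2, KHDRBS2, HLA-DOB, IGHE and IGHG2), and the mean of the other lines alone 3784 and 2268. With lines as the unit there were 0 and 0 (1 residual degree of freedom, smallest adjusted p 0.996). IGLC2, which was not called, turned from -0.13 (log2) to 0.23 without HG3 replicate 1, and ranged from -0.35 to 0.23 with each library left out. Leaving out 1 library ended the call of CCNE2, CSF1R, EPCAM, ESRP1, ITGA6, LEF1 or PMAIP1, none of which passed the test of the 2-fold threshold either. The block ended no call of a named gene.

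Junctions used more and less numbered 195 and 178. At least 50 reads gave 80 and 71, 30 points 51 and 50, shared donors 150 and 147, and columns thinned to the smallest total 184 and 171. The first follow from the stricter rules.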

Other observations

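Imprinted genes, which are read from a single parental copy, were gathered after their values were seen, as a list of 31. Of 22 tested, 4 were higher (18.2%, against 10.9% of all genes) and 4 lower (18.2%, against 7.02%). The 4 higher (NDN, MEG3, MEG8 and PHLDA2) had 9 counts or fewer in HG3 and in MEC1, too few to pass the filter there. They were tested because of JVM3 and had little room not to be called. Of the 4 lower, SNURF, SNRPN and SNHG14 lie in the same region of chromosome 15, and MEST was the other. The list was gathered with the values known, so neither share is evidence on the list. On chromosome 15 the members of one imprinted region split. NDN stood at 13.5 and 12.7 CPM in JVM3 and had 0 counts in HG3 and MEC1, while SNRPN was at 0.0705 and 0.179 CPM against 5.93 and 5.17 in HG3 and 3.95 and 3.38 in MEC1, and SNHG14 at 0.211 and 0.268 against 40.5 to 44.8 in the other libraries. MKRN3 of the same region was at 15 and 13.4 CPM in JVM3, 22.5 and 23.2 in HG3 and 0 in MEC1. On chromosome 14 MEG3, a long noncoding RNA, was at 32.4 and 31.3 CPM against 0.168 or less elsewhere, and its neighbour MEG8 was higher too. PHLDA2 was higher at 10.1 and 8.19 CPM. MEST was lower, with 1 count in JVM3 against 12.7 and 12.8 CPM in HG3 and 4.06 and 4.1 in MEC1. UBE3A, GNAS and KCNQ1OT1 were within 2-fold of both lines. Allele use was not measured here.

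Developmental and drug transport genes outside the lists also differed. HOXA5 stood at 1.97 and 1.7 CPM in JVM3 against 0.0631 or less elsewhere, and HOXC6 at 1.8 and 2.32 against 0.166 or less. ABCB1, the multidrug pump, was lower, at 0.493 and 0.208 CPM against 23.1 and 23.2 in HG3 and 5.77 and 6.12 in MEC1. ACTB, often used as a constant reference, was higher, at 14910 and 14420 CPM against 7351 and 6965 and 5111 and 4714. These genes were chosen after their values were seen.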
